A study of Homo sapiens with 33 samples.

Results

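Sagunja-tang at 500 µg/mL was compared with Sagunja-tang at 20 µg/mL in HT29 cells, with 2 libraries at each dose, so that 4 of the 33 libraries of the study carry the comparison. The libraries were chosen by their labels alone: replicates 2 and 3 of the high dose against replicates 2 and 3 of the low dose, with no vehicle library on either side. HT29 is a human colorectal adenocarcinoma line. All 4 libraries came from cells given an ethanol extract of the formula for 24 h, and they differed in its concentration. The other 29 libraries, which took part in estimating the spread, were 2 of Sagunja-tang at 100 µg/mL (medium dose), 6 of Samul-tang, 9 of Palmul-tang and 9 of Sibjeondaebo-tang, each at the same 3 doses, and 3 of vehicle (0.1% DMSO in the sample labels). Nothing in the labels says that replicates were separate cultures, so the p-values measure spread within groups over all 33 libraries, which may be technical.

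Sagunja-tang is a tonic formula of East Asian medicine made from ginseng, Atractylodes rhizome, Poria and licorice. Plant extracts carry many electrophilic and phenolic compounds, and cells answer such compounds in part through NRF2, a transcription factor that is held by KEAP1 and degraded at rest. When KEAP1 is modified, NRF2 builds up, pairs with a small MAF protein and binds antioxidant response elements, which raises enzymes that reduce carbonyls and quinones, make glutathione, supply NADPH and export conjugates. HT29 cells retain features of both absorptive and mucus-secreting colon epithelium, so mucin and differentiation genes can be read in them as well.

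Expression is given in CPM, a gene's count scaled to the normalized total of its library, in the order replicate 2, replicate 3. A difference is a log2 ratio of the high to the low dose ± SE, and a gene is said to have risen or fallen where edgeR's quasi-likelihood test gave an adjusted p under 0.05 over all 17432 genes tested. Of these genes, 581 rose (3.33%) and 673 fell (3.86%) at the high dose against the low dose, and 1254 (7.19%) changed in either direction. Total counts were 30931410 and 37780050 at the high dose, against 40892260 and 41124140 at the low dose. Markers of colon epithelium were expressed in all 4 libraries, with all 18 listed genes tested, and their summed level was 15718 and 13819 CPM at the high dose, against 13990 and 13801 CPM at the low dose. Few markers of other cells passed the filter: 5 of 12 for fibroblasts, 5 of 10 for endothelium and 4 of 12 for leukocytes, and of these 14 genes edgeR called 0, with 4 at an unadjusted p under 0.05, and DESeq2 called 0. The fibroblast markers summed to 8.09 and 8.36 CPM at the high dose and 9.04 and 9.06 CPM at the low dose, and the endothelial ones to 52.9 and 52 CPM against 46.1 and 47.2 CPM. Nearly all leukocyte marker signal was LYZ, the lysozyme gene, at 1818 and 1548 CPM at the high dose against 1477 and 1489 CPM at the low dose.

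High-dose replicate 2 stood apart from its partner, and this bears on every count below. The log2 values of the high-dose pair differed with an SD of 0.506, against 0.355 to 0.458 in the other 26 pairs of replicates of the study. Among genes averaging a log2 CPM of at least 2 the SD was 0.259, against 0.0958 to 0.175. The spread shared by all groups may therefore be too narrow for this pair, and p-values that rest on it too small. In replicate 2 the high-minus-low difference moved with transcript length (Spearman -0.309 across 17304 genes, which are not independent), and in replicate 3 it did so far less (-0.0168). Among transcripts over 8000 bases, replicate 2 had a median difference of -0.264, while replicate 3 had -0.00376. Among transcripts of up to 1000 bases, the medians were 0.136 in replicate 2 and -0.0107 in replicate 3. Calls leaned the same way: 0.743% of genes of up to 1000 bases and 14.2% of genes over 8000 bases were called lower, and the median transcript length was 5345 bases for genes that fell, 2327 for genes that rose and 2793 for all genes. Without high-dose replicate 2, 47 of 17903 genes rose (0.263%) and 93 fell (0.519%), and without high-dose replicate 3, 2029 of 17922 rose (11.3%) and 2193 fell (12.2%). Without low-dose replicate 2 there were 320 calls, and without low-dose replicate 3 there were 317. With trends in length and GC content removed from each library, 626 genes rose and 492 fell, 3.59% and 2.82% of genes tested. Rises then made up 56.0% of calls in place of 46.3%, and 828 of the 1254 calls were kept. Across all genes the differences seen in replicate 2 and replicate 3 correlated weakly (Pearson r = 0.0697, and 0.288 for genes averaging a log2 CPM of at least 2).

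**Figure D1:**
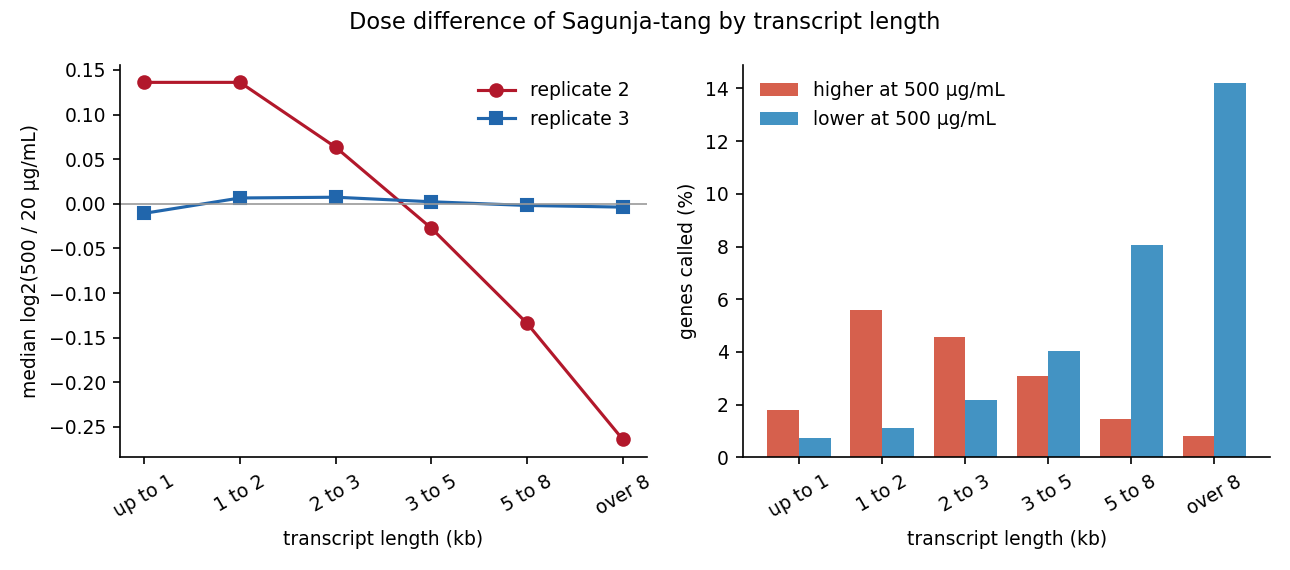
Left, median log2 ratio of 500 to 20 µg/mL Sagunja-tang (vertical axis) in bins of transcript length in kilobases (horizontal axis), for replicate 2 and replicate 3 separately. Right, percentage of genes in each bin called higher or lower at 500 µg/mL; the replicate 2 medians run from 0.136 to -0.264, and calls of lower genes reach 14.2% in the longest bin.

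Of the 1254 genes, 101 were also called, in the same direction, when each of the 4 libraries was left out in turn: 35 that rose and 66 that fell. For genes outside this set the accounts below state which omissions ended the call. High-dose and low-dose libraries did not overlap for 7747 of all genes tested (44.4%), so absence of overlap between 2 and 2 libraries is not by itself a mark of a changed gene.

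The aldo-keto reductases, NADPH-dependent enzymes that reduce aldehydes and ketones and are classic NRF2 targets, held the largest rises among well-expressed protein-coding genes. AKR1C2 stood at 24.7 and 20.9 CPM at the high dose, against 10.9 and 10.5 CPM at the low dose, a log2 ratio of 1.08 ± 0.09 (edgeR adjusted p = 2.28e-08). AKR1B10 (ENSG00000198074, hg38 chromosome 7, 134527592 to 134541408), a reductase that also acts on retinal, stood at 200 and 177 CPM at the high dose, against 93.6 and 101 CPM at the low dose (0.96 ± 0.06, edgeR adjusted p = 7.14e-11). In both genes the gap between doses exceeded the gap between replicates, and doses that do not overlap were a condition for the largest rises named here. AKR1C3 had 116 and 78.4 CPM at the high dose and 54.3 and 46.9 CPM at the low dose (0.94 ± 0.15), with a larger value in replicate 2, and AKR1C1 had 29.3 and 22.7 CPM against 14.8 and 14.4 CPM (0.83 ± 0.10). AKR1C1, AKR1C2 and AKR1C3 lie side by side between 4963253 and 5107686 on chromosome 10 and are close in sequence, so their reads may be shared between them. These 4 were the members called among 11 tested, with none lower, and they were called under each of the 4 omissions. The list had a median of 0.24, against 0.00067 over all genes. The other 7 members gave no call, among them AKR1A1, a widely expressed member, at 80.9 and 64.3 CPM at the high dose and 68.8 and 66.6 CPM at the low dose (0.10 ± 0.07).

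Aldehyde dehydrogenases oxidize what the reductases would otherwise reduce. ALDH3A1 (chromosome 17, 19737984 to 19748943), which oxidizes aromatic and medium-chain aldehydes, stood at 53.5 and 48.3 CPM at the high dose, against 26.6 and 28.4 CPM at the low dose (0.89 ± 0.06, edgeR adjusted p = 7.14e-11). Its neighbour ALDH3A2, which oxidizes fatty aldehydes, stood at 134 and 136 CPM at the high dose and 107 and 107 CPM at the low dose (0.34 ± 0.06). Both were called under all 4 omissions. ALDH1A1 rose as well (0.23 ± 0.06) and ALDH5A1 fell (-0.32 ± 0.08), but without high-dose replicate 2 their edgeR adjusted p values were 0.406 and 0.363. Without low-dose replicate 2 they were 0.103 and 0.134, and without low-dose replicate 3 the ALDH1A1 call was also lost (0.131). In all, 3 of 15 members rose and 1 fell, with a median of 0.073.

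Glutathione is built from cysteine, glutamate and glycine, and 3 genes of its supply rose. GCLM (ENSG00000023909, chromosome 1, 93885205 to 93909456), the modifier subunit of glutamate-cysteine ligase, stood at 97.1 and 87.7 CPM at the high dose, against 62.1 and 61.0 CPM at the low dose (0.58 ± 0.06, edgeR adjusted p = 1.83e-07). GCLC, the catalytic subunit, stood at 108 and 110 CPM against 83.6 and 83.1 CPM (0.38 ± 0.06). SLC7A11, which brings in cystine in exchange for glutamate, had 172 and 182 CPM at the high dose and 135 and 131 CPM at the low dose (0.42 ± 0.05). In all 3 genes both high-dose libraries lay well above both low-dose libraries, and the calls stood under every omission. GSR, which reduces oxidized glutathione, rose by 0.22 ± 0.06, a call lost without high-dose replicate 2 (edgeR adjusted p = 0.329), low-dose replicate 2 (0.0876) or low-dose replicate 3 (0.148). Of 17 tested members of glutathione synthesis and use, 4 rose and 1 fell, with a median of 0.22. The fall was in GGT1, which breaks down extracellular glutathione, and was lost without high-dose replicate 2 or either low-dose library (edgeR adjusted p from 0.143 to 0.346).

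Quinone reductase and the thioredoxin system act beside glutathione. NQO1 (chromosome 16, 69706996 to 69726951), which reduces quinones by 2 electrons, was the most abundant gene of this group at 782 and 671 CPM at the high dose, against 512 and 518 CPM at the low dose (0.50 ± 0.06, edgeR adjusted p = 4.58e-06). PTGR1, a reductase of prostaglandin and alkenal substrates, had 83.9 and 71.9 CPM at the high dose and 62.0 and 60.1 CPM at the low dose (0.35 ± 0.06). EPHX1, an epoxide hydrolase, had 128 and 130 CPM against 102 and 106 CPM (0.31 ± 0.06), and TXNRD1, the cytosolic thioredoxin reductase, had 451 and 443 CPM against 354 and 335 CPM (0.38 ± 0.08). NQO1 alone of these was called under every omission. The PTGR1 call was lost without high-dose replicate 2 (edgeR adjusted p = 0.107), that of EPHX1 without low-dose replicate 2 (0.0512), and that of TXNRD1 without high-dose replicate 2 (0.0989) or low-dose replicate 3 (0.0931). Of 18 tested members 7 rose and none fell, with a median of 0.28, and the count was 2 without high-dose replicate 2, 15 without high-dose replicate 3, 3 without low-dose replicate 2 and 5 without low-dose replicate 3.

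Heme and iron handling changed in a mixed way. HMOX1, which degrades heme, had 14.0 and 16.3 CPM at the high dose, against 10.7 and 10.6 CPM at the low dose (0.52 ± 0.08, edgeR adjusted p = 0.000161). SLC40A1, the iron exporter ferroportin, fell to 103 and 106 CPM at the high dose, against 126 and 130 CPM at the low dose (-0.29 ± 0.05). Both calls stood under every omission. In macrophages NRF2 is known to raise both genes. FTL, the ferritin light chain, had 2879 and 2812 CPM at the high dose and 1971 and 2243 CPM at the low dose (0.43 ± 0.08), a call lost without low-dose replicate 2 (edgeR adjusted p = 0.0810). In all 5 of 13 members rose and 1 fell; the rises numbered 2 without high-dose replicate 2, 1 without low-dose replicate 2 and 2 without low-dose replicate 3.

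NADPH pays for the reductions above. ME1, the cytosolic malic enzyme, had 127 and 114 CPM at the high dose, against 95 and 94.5 CPM at the low dose (0.34 ± 0.04, edgeR adjusted p = 1.17e-05), and TKT, the transketolase of the pentose phosphate pathway, had 666 and 646 CPM against 557 and 570 CPM (0.22 ± 0.04). Of 12 members 4 rose and 1, mitochondrial IDH2, fell by 0.14 on the log2 scale; the IDH2 call was lost under each omission (edgeR adjusted p from 0.0669 to 0.158).

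Among 12 regulators of the pathway 2 rose, MAFG and MAFF. MAFG, a small MAF partner of NRF2, had 99.3 and 86.5 CPM at the high dose and 76.7 and 72.7 CPM at the low dose (0.31 ± 0.06), a call lost without high-dose replicate 2 (edgeR adjusted p = 0.104). NFE2L2, which encodes NRF2 itself, had 118 and 122 CPM at the high dose and 117 and 125 CPM at the low dose (-0.01 ± 0.06). BACH1, a repressor that competes for the same DNA elements, had 41.4 and 44.2 CPM against 46.1 and 42.4 CPM (-0.05 ± 0.05). The doses overlapped for NFE2L2 and BACH1. MAFF, another small MAF gene, rose by 0.19 ± 0.06, and its call was lost under each omission (edgeR adjusted p from 0.142 to 0.231).

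**Figure D2:**
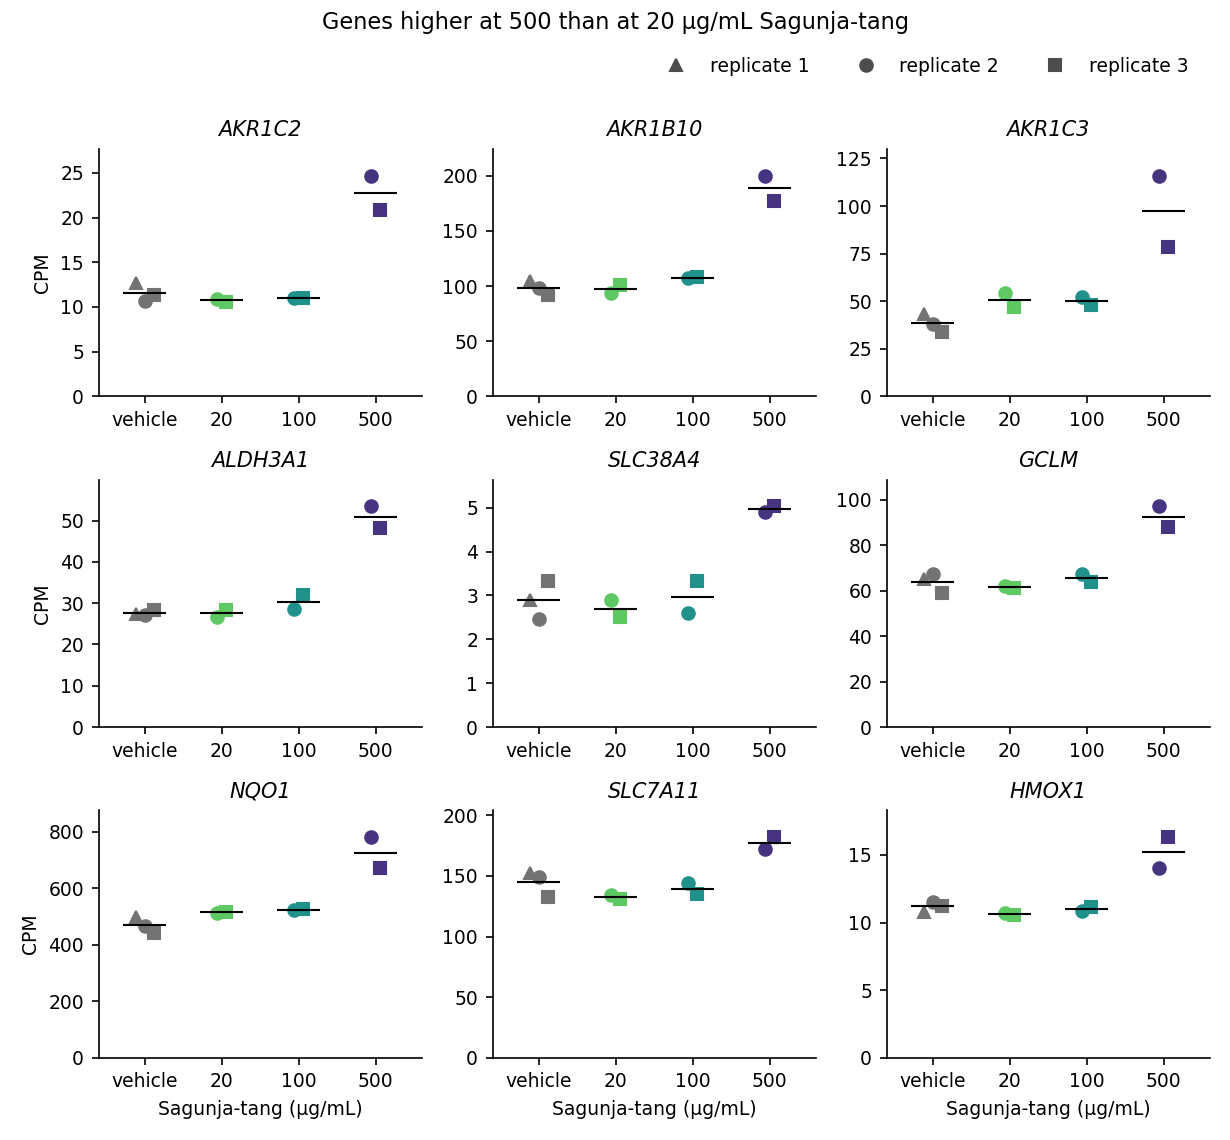
CPM (vertical axes, from 0) of 9 genes in each library of vehicle and of Sagunja-tang at 20, 100 and 500 µg/mL (horizontal axes). Symbols are single libraries by replicate and short lines are group means; in every panel both libraries at 500 µg/mL lie above those at 20 and 100 µg/mL, for example AKR1B10 at 200 and 177 CPM against 93.6 and 101 CPM at 20 µg/mL.

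4 genes that rose, in glutathione synthesis, NADPH supply and the thioredoxin system, are shown with the stretch before their start that holds the core letters of the antioxidant response element, TGACNNNGC, since these are the letters NRF2 and its MAF partner are known to read. The search covered 250 bases before the start on both strands in RefSeq (GRCh38.p14); the 9 bases of the match are in capitals, and each line reads 5′ to 3′ on the strand of the gene. The lines give GCLM at chr1:93909436-93909484 (minus strand), ME1 at chr6:83431160-83431208 (minus strand), TXNRD1 at chr12:104215660-104215708 (plus strand) and PGD at chr1:10398843-10398891 (plus strand).
GCLM: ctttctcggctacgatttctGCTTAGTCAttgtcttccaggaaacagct
ME1: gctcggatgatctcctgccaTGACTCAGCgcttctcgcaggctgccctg
TXNRD1: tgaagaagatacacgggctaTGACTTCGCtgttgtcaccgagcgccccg
PGD: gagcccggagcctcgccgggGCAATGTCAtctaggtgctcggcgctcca
ME1 and TXNRD1 hold the core on the strand of the gene, and GCLM and PGD hold it on the opposite strand. In ME1 the match also contains TGACTCA, the AP-1 site. The start of GCLM in GENCODE 29, base 93909456, falls inside the stretch shown, which lies wholly before the RefSeq start. PGD, a pentose phosphate dehydrogenase, had 273 and 266 CPM at the high dose and 251 and 243 CPM at the low dose (0.13 ± 0.04), a call lost without high-dose replicate 2 (edgeR adjusted p = 0.352) and without either low-dose library (0.101 and 0.243), and TXNRD1 is described above. Among all 27305 windows 11% held the core. Among the 34 genes that rose in the 7 redox and detoxification lists, 27 had a window and 7 of those (25.9%) held it; since under 80% of the 34 had a window, a comparison of the shares is void. The 4 genes shown were picked from those that held the core. ABCB6, CBR1 and FECH held it as well and are not shown. The windows of AKR1C1, AKR1C2, AKR1C3, NQO1, GCLC, ABCG2, UGT1A6 and UGT1A8, among others, were searched and held no match. A match describes letters in a window and is not a binding site.

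Drug conjugation and export held further rises. UGT1A10, a glucuronosyltransferase of the gut, had 497 and 476 CPM at the high dose, against 374 and 367 CPM at the low dose (0.39 ± 0.04, edgeR adjusted p = 1.83e-07). UGT1A8 had 93.7 and 88.1 CPM against 68.6 and 66.1 CPM (0.43 ± 0.05), and UGT1A6 had 68.5 and 60.6 CPM against 46.8 and 47.8 CPM (0.45 ± 0.07). UGT1A genes share all exons but the first, so counts of one can hold reads of another, and the 3 values are not independent. ABCG2, an efflux pump for conjugates and porphyrins, had 112 and 113 CPM at the high dose and 85.0 and 86.2 CPM at the low dose (0.39 ± 0.05, edgeR adjusted p = 4.58e-06). Replicates of ABCG2 lay close together at both doses. ABCC3, another export pump, stood at 491 and 562 CPM against 523 and 539 CPM (-0.01 ± 0.05). Of 16 members 7 rose and 1 fell (ABCC4, lost without high-dose replicate 2, edgeR adjusted p = 0.604, and without either low-dose library, 0.223 and 0.124), with a median of 0.11; the rises numbered 4 to 7 over the 4 omissions.

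3 of the genes above, NQO1, ALDH3A1 and UGT1A6, are also known targets of the aryl hydrocarbon receptor, a sensor of planar aromatic compounds, and they were the only members called among 9 tested. Its most specific targets gave no call, at low levels for CYP1A1, and a role of the receptor was not tested. CYP1A1 had 1.32 and 1.36 CPM at the high dose and 0.852 and 0.666 CPM at the low dose (0.82 ± 0.60), and ranged from 0.603 to 5.25 CPM over the vehicle libraries. TIPARP had 80.6 and 91.3 CPM against 84.5 and 86.7 CPM (0.01 ± 0.07).

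Among 20 amino acid transporter genes 2 rose (SLC38A4 and SLC7A11) and 2 fell (SLC3A1 and SLC6A20). SLC38A4, which carries neutral and cationic amino acids, had 4.90 and 5.03 CPM at the high dose, against 2.89 and 2.5 CPM at the low dose (0.88 ± 0.16, edgeR adjusted p = 0.00139). SLC6A20, a transporter of proline and other imino acids, fell to 4.77 and 4.67 CPM at the high dose, against 7.74 and 8.87 CPM at the low dose (-0.82 ± 0.08, edgeR adjusted p = 4.75e-07). Both stood under every omission. SLC3A1, a subunit of the cystine and dibasic amino acid transporter of the brush border, had 1.16 and 1.86 CPM at the high dose and 2.3 and 3.45 CPM at the low dose (-0.90 ± 0.22), the largest change of the list in size, and its call was lost without high-dose replicate 2 (edgeR adjusted p = 0.335) or low-dose replicate 3 (0.232).

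Among well-expressed genes the largest fall was in SLC14A1 (chromosome 18, 45687025 to 45752520), a urea transporter gene, which had 3.03 and 3.43 CPM at the high dose, against 6.42 and 6.21 CPM at the low dose (-0.96 ± 0.16, edgeR adjusted p = 0.000634). ATP6V1B1, a subunit of the vacuolar proton pump found in acid-secreting epithelia, had 16.1 and 16.5 CPM against 27.3 and 27.9 CPM (-0.76 ± 0.09). RNF144B, a ubiquitin ligase, had 8.70 and 8.97 CPM against 14.8 and 14.1 CPM (-0.71 ± 0.08). High-dose replicates of these genes lay close together, and doses that do not overlap were a condition for the largest falls named here. SYTL2, a RAB27 effector in vesicle docking, had 24.9 and 33.8 CPM at the high dose and 47.3 and 46.9 CPM at the low dose (-0.68 ± 0.08), and RAB27B, a small GTPase of the same step, had 15.8 and 18.8 CPM against 23.5 and 22.7 CPM (-0.41 ± 0.07); RAB27B was named after its value was seen. All of these were called under every omission.

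Other large falls lost their call when a library was left out. NEB, PRLR, FILIP1L, LINC00261, MGAM2, ATOH1 and IGFL2-AS1 fell by 0.70 to 0.79 on the log2 scale, and each lost its call without high-dose replicate 2 (edgeR adjusted p from 0.0603 to 0.393). In MGAM2, for example, the high-dose libraries stood at 19.6 and 38.6 CPM, against 47.6 and 49.0 CPM at the low dose. Their log2 ratios were then between -0.33 (MGAM2) and -0.59 (LINC00261 and FILIP1L). The calls of NEB, MGAM2 and ATOH1 were also lost without low-dose replicate 3 (0.0941, 0.0627 and 0.160), and that of NEB without low-dose replicate 2 (0.0602). Among rises, CCDC85B (0.57 ± 0.15), CORO1A (0.55 ± 0.12) and the pseudogene PSMC1P1 (0.55 ± 0.14) lost their calls without high-dose replicate 2 or either low-dose library (edgeR adjusted p from 0.0515 to 0.713). The log2 ratio of CORO1A was 0.50 to 0.59 over the 4 omissions and that of PSMC1P1 0.45 to 0.65, while that of CCDC85B was 0.21 without high-dose replicate 2 and 0.86 without high-dose replicate 3. RN7SL1 and RN7SL2, near-identical copies of the signal recognition particle RNA, had 29.1 and 11.1 CPM and 40.2 and 19.3 CPM at the high dose, against 4.12 and 3.09 CPM and 4.12 and 2.45 CPM at the low dose, a log2 ratio of 2.45 ± 0.69 and 3.16 ± 0.83. These 2 RNAs varied between 2.18 and 70.1 CPM over the libraries of the study, and their calls were lost under 3 of the 4 omissions (edgeR adjusted p from 0.116 to 0.512), all but that of high-dose replicate 3.

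**Figure D3:**
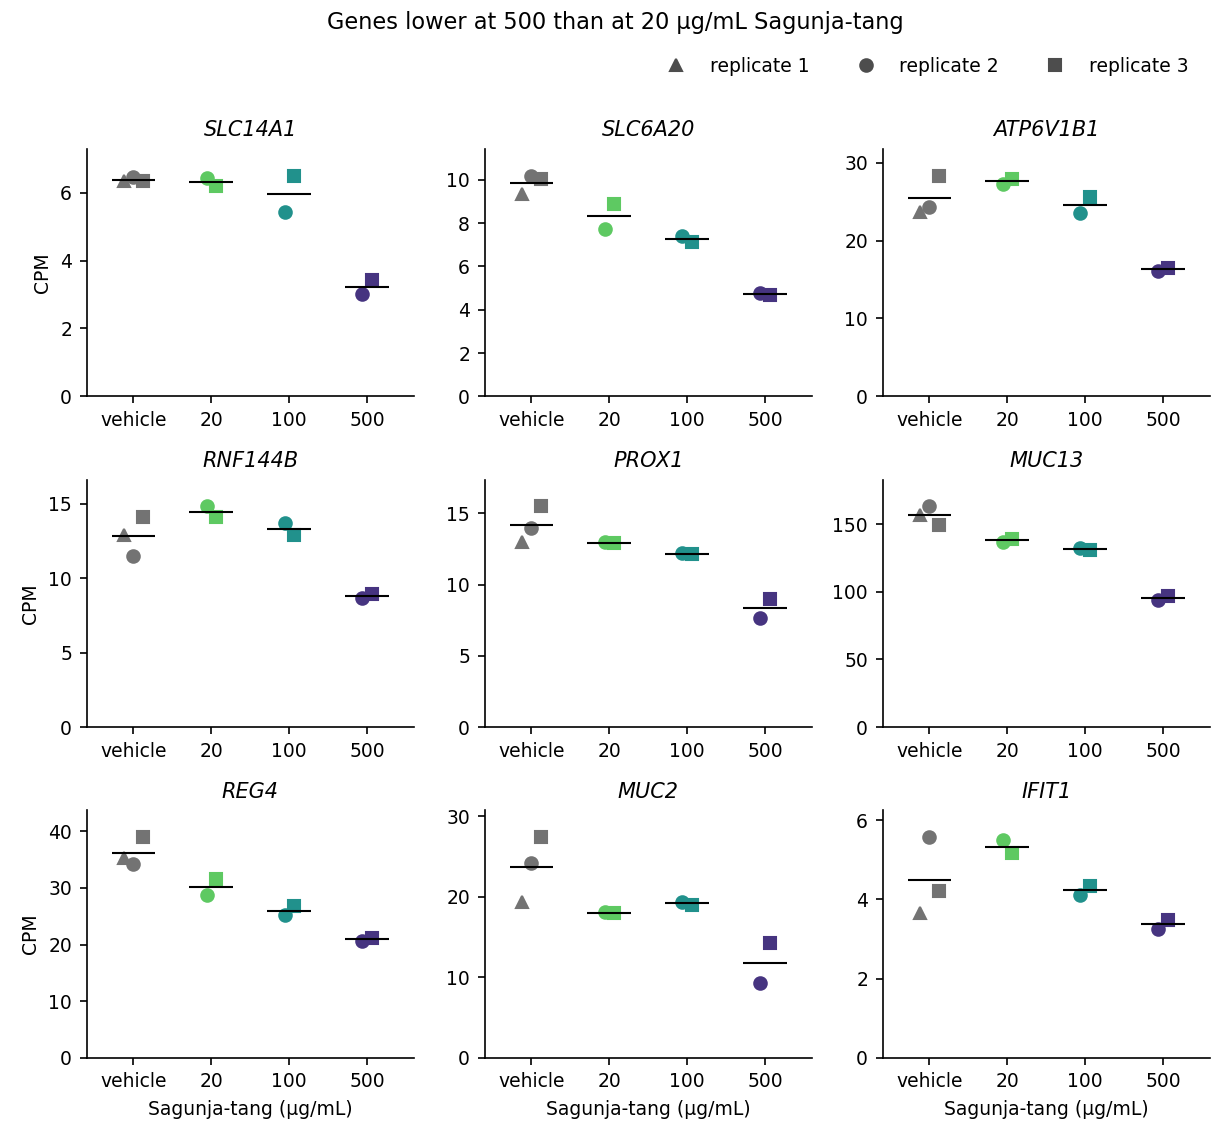
CPM (vertical axes, from 0) of 9 genes in each library of vehicle and of Sagunja-tang at 20, 100 and 500 µg/mL (horizontal axes). Symbols are single libraries by replicate and short lines are group means; both libraries at 500 µg/mL lie below those at 20 µg/mL in every panel, while MUC2 at 9.24 and 14.2 CPM shows the spread between high-dose replicates.

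3 mucin genes of the cell surface fell. MUC13 (ENSG00000173702, chromosome 3, 124905442 to 124953819), a transmembrane mucin abundant in the colon, had 93.6 and 96.7 CPM at the high dose, against 137 and 139 CPM at the low dose (-0.54 ± 0.05, edgeR adjusted p = 2.40e-08). MUC20 had 39.5 and 46.5 CPM against 59.6 and 60.4 CPM (-0.48 ± 0.07). Both stood under every omission, with close replicates in MUC13. MUC16 had 0.290 and 0.393 CPM at the high dose and 1.04 and 1.45 CPM at the low dose (-1.84 ± 0.36), a call lost without high-dose replicate 2 (edgeR adjusted p = 0.0720). MUC17, at 3.19 and 7.24 CPM against 6.98 and 7.85 CPM (-0.48 ± 0.24), and MUC12, at 4.57 and 6.58 CPM against 6.82 and 7.04 CPM (-0.30 ± 0.19), gave no call. Of 8 tested members 3 fell and none rose, with a median of -0.47, or -0.19 without high-dose replicate 2. These are long transcripts, with a median of 12740 bases, and the number of falls was 3 with length and GC trends removed.

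Genes of goblet and secretory cells gave 5 falls. In these bulk libraries fewer cells of a type and less RNA per cell cannot be told apart. REG4, a secreted lectin of goblet and enteroendocrine cells, had 20.6 and 21.2 CPM at the high dose, against 28.8 and 31.6 CPM at the low dose (-0.53 ± 0.08, edgeR adjusted p = 0.000249). CREB3L1, a membrane-bound transcription factor of secretory cells, had 112 and 130 CPM against 165 and 173 CPM (-0.48 ± 0.07). Both stood under every omission. MUC2, the gel-forming mucin of the colon, had 9.24 and 14.2 CPM at the high dose and 18.1 and 18.0 CPM at the low dose (-0.60 ± 0.15), a call lost without high-dose replicate 2 (edgeR adjusted p = 0.419) or either low-dose library (0.0791 and 0.0760). FCGBP, a protein of the mucus gel, fell by 0.55 on the log2 scale and lost its call without high-dose replicate 2 (edgeR adjusted p = 0.125). ATOH1, the transcription factor that sets secretory fate, is given above. No member rose among 18 tested, and the median was -0.34; the falls numbered 2 without high-dose replicate 2 and 3 without low-dose replicate 3. The tested members had a median transcript length of 2054 bases, and their median difference was -0.26 in replicate 2 and -0.32 in replicate 3. Of the 18, 15 had a difference below 0 and 3 above 0, the largest at 0.89. TFF1, SPDEF and AGR2 gave no call. With high-dose replicate 2 or 3 left out, TFF1 stood at 0.97 and 0.79, SPDEF at -0.11 and -0.09, and AGR2 at -0.17 and 0.004.

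Markers of absorptive cells and of Wnt output gave few calls. VIL1, the villin of the brush border, had 155 and 160 CPM at the high dose, against 193 and 191 CPM at the low dose (-0.29 ± 0.03, edgeR adjusted p = 2.68e-06). Of 14 enterocyte genes 2 fell and 1 rose. The other fall was in the glucose transporter gene SLC5A1, lost without high-dose replicate 2 (edgeR adjusted p = 0.414) and without either low-dose library (0.0685 and 0.112). The rise was in the fatty acid binding gene FABP1, lost without high-dose replicate 2 (0.508) or low-dose replicate 3 (0.332). PROX1 (chromosome 1, 213983181 to 214041502), a homeobox factor known as a Wnt target in colon tumours, had 7.63 and 9.02 CPM at the high dose and 13 and 12.9 CPM at the low dose (-0.63 ± 0.09, edgeR adjusted p = 5.21e-05). It stood under every omission, whereas TDGF1, the other of the 2 falls among 18 Wnt targets, lost its call under each (edgeR adjusted p from 0.0788 to 0.204). LGR5, a stem cell receptor gene, had 37.7 and 44.0 CPM against 37.2 and 38.1 CPM (0.12 ± 0.06).

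Few lipid genes were called. ACSS2, which makes cytosolic acetyl-CoA from acetate, had 17.3 and 19.6 CPM at the high dose, against 27.8 and 28.6 CPM at the low dose (-0.61 ± 0.08, edgeR adjusted p = 2.91e-05). In sterol synthesis and uptake 5 of 25 members fell and none rose, with a median of -0.07. LSS, lanosterol synthase, had 108 and 108 CPM at the high dose and 126 and 126 CPM at the low dose (-0.22 ± 0.04) and was the only one of the 5 called under every omission. HMGCS1, an early enzyme of sterol synthesis, and INSIG1, which retains the sterol sensor in the endoplasmic reticulum (-0.26 and -0.18), lost their calls under each omission (edgeR adjusted p from 0.0519 to 0.181). ACADVL, which starts the oxidation of very long chain fatty acids, had 216 and 197 CPM at the high dose and 171 and 174 CPM at the low dose (0.26 ± 0.04). Among PPAR and fatty acid oxidation genes 3 of 22 rose and none fell. ACADVL stood under every omission. PDK4 lost its call without high-dose replicate 2 or low-dose replicate 2, and the omissions that ended the FABP1 call are given above. The cholesterol exporter gene ABCG1, an LXR target, had 6.57 and 6.55 CPM against 4.57 and 4.43 CPM (0.54 ± 0.13), with an edgeR adjusted p of 0.103 without high-dose replicate 2 and of 0.0672 and 0.0830 without each low-dose library. Of 11 LXR targets 3 rose, and without either low-dose library 0 did.

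Of 23 interferon-induced genes 4 fell and none rose, and no call was kept without high-dose replicate 2. IFIT1, an RNA-binding effector, had 3.25 and 3.49 CPM at the high dose, against 5.49 and 5.16 CPM at the low dose (-0.66 ± 0.15), and MX1 had 4.45 and 4.27 CPM against 7.32 and 5.76 CPM (-0.59 ± 0.15). IRF9, which carries the signal of the type I receptor, had 8.15 and 8.21 CPM at the high dose and 11.8 and 11.1 CPM at the low dose (-0.49 ± 0.13). The fourth was OAS3, an enzyme of antiviral RNA decay, at 80.7 and 102 CPM against 112 and 105 CPM (-0.24 ± 0.07). The list had a median of -0.24, or -0.27 without high-dose replicate 2. By replicate its median was -0.37 in replicate 2 and -0.16 in replicate 3. The 4 calls were lost without high-dose replicate 2 (edgeR adjusted p from 0.124 to 0.737) and without low-dose replicate 2 (0.0707 to 0.238). Without low-dose replicate 3 those of IRF9 (0.0792) and OAS3 (0.0929) were lost. HERC6, PARP14 and SLFN5, interferon-induced genes outside the list, fell by 0.59, 0.36 and 0.52 and stood under every omission. They were picked from the falls after their values were seen, so they lend the list no support.

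Some genes of growth and protein folding rose by small amounts. DNA replication had the most calls of the 51 lists: 16 of 38 members rose and none fell, with a median of 0.15. Its median was 0.20 in replicate 2 and 0.11 in replicate 3. RRM2, a subunit of ribonucleotide reductase, had 349 and 333 CPM at the high dose, against 299.5 and 296 CPM at the low dose (0.20 ± 0.04). CDC6, which licenses replication origins, had 91.6 and 95.6 CPM against 83.0 and 81.4 CPM (0.19 ± 0.04). The RRM2 call was lost without high-dose replicate 2 (edgeR adjusted p = 0.0717) and the CDC6 call without low-dose replicate 3 (0.0567). The number of rises in this list was 1 without high-dose replicate 2, 22 without high-dose replicate 3, and 3 and 2 without each low-dose library. Mitosis genes gave 6 rises of 30 and a median of 0.11, and CCNB2, a mitotic cyclin, had 160 and 158 CPM against 138 and 142 CPM (0.18 ± 0.04), a call lost without high-dose replicate 2 (edgeR adjusted p = 0.0593) or low-dose replicate 2 (0.0816).

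Chaperones of the cytosol and of the endoplasmic reticulum were also among the rises. FKBP4, a cochaperone of HSP90, had 276 and 253 CPM at the high dose, against 220 and 222 CPM at the low dose (0.26 ± 0.04). HSP90B1, the HSP90 of the endoplasmic reticulum, had 839 and 770 CPM against 686 and 678 CPM (0.24 ± 0.04). Each was the single member of its list called under every omission. Heat shock genes rose in 6 of 21 members (median 0.13) and unfolded protein response genes in 9 of 24 (median 0.13), with none lower. HSPA5, the main chaperone of the endoplasmic reticulum, had 567 and 507 CPM at the high dose and 445 and 441 CPM at the low dose (0.28 ± 0.05), a call lost without high-dose replicate 2 (edgeR adjusted p = 0.0895). Without high-dose replicate 2 each of these lists held 1 rise, without low-dose replicate 2 there were 2 and 4, and without low-dose replicate 3 there were 2 and 3.

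Lists of short, abundant transcripts had medians further from 0 in replicate 2 than in replicate 3. Proteasome subunits rose in 9 of 32 members, with a median of 0.21 that was 0.35 in replicate 2 and 0.09 in replicate 3. Mitochondrial ribosomal proteins rose in 5 of 30 (0.29 in replicate 2 and 0.05 in replicate 3), nuclear-encoded oxidative phosphorylation in 2 of 34 (0.28 and 0.01), and ribosomal proteins of the large subunit in 1 of 30 (0.23 and -0.02). For the small subunit edgeR called 0 of 30 (0.32 and -0.02), with 15 at an unadjusted p under 0.05, and DESeq2 called 2. Without high-dose replicate 2 none of these lists kept a call, and without high-dose replicate 3 between 18 and 28 members of each rose. Ribosome biogenesis differed in that its medians were close, 0.12 in replicate 2 and 0.09 in replicate 3, but its 9 rises of 30 members also numbered 0 without high-dose replicate 2 and 1 without each low-dose library. Glycolysis gave 7 rises and 1 fall of 25, and 0 rises without high-dose replicate 2 or either low-dose library. The proteasome, mitochondrial ribosomal, oxidative phosphorylation and cytosolic ribosomal lists had median transcript lengths of 1128 to 1580 bases. With length and GC trends removed, the proteasome list kept 6 rises in number and mitochondrial ribosomal proteins 2, while nuclear-encoded oxidative phosphorylation had 0.

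**Figure D4:**
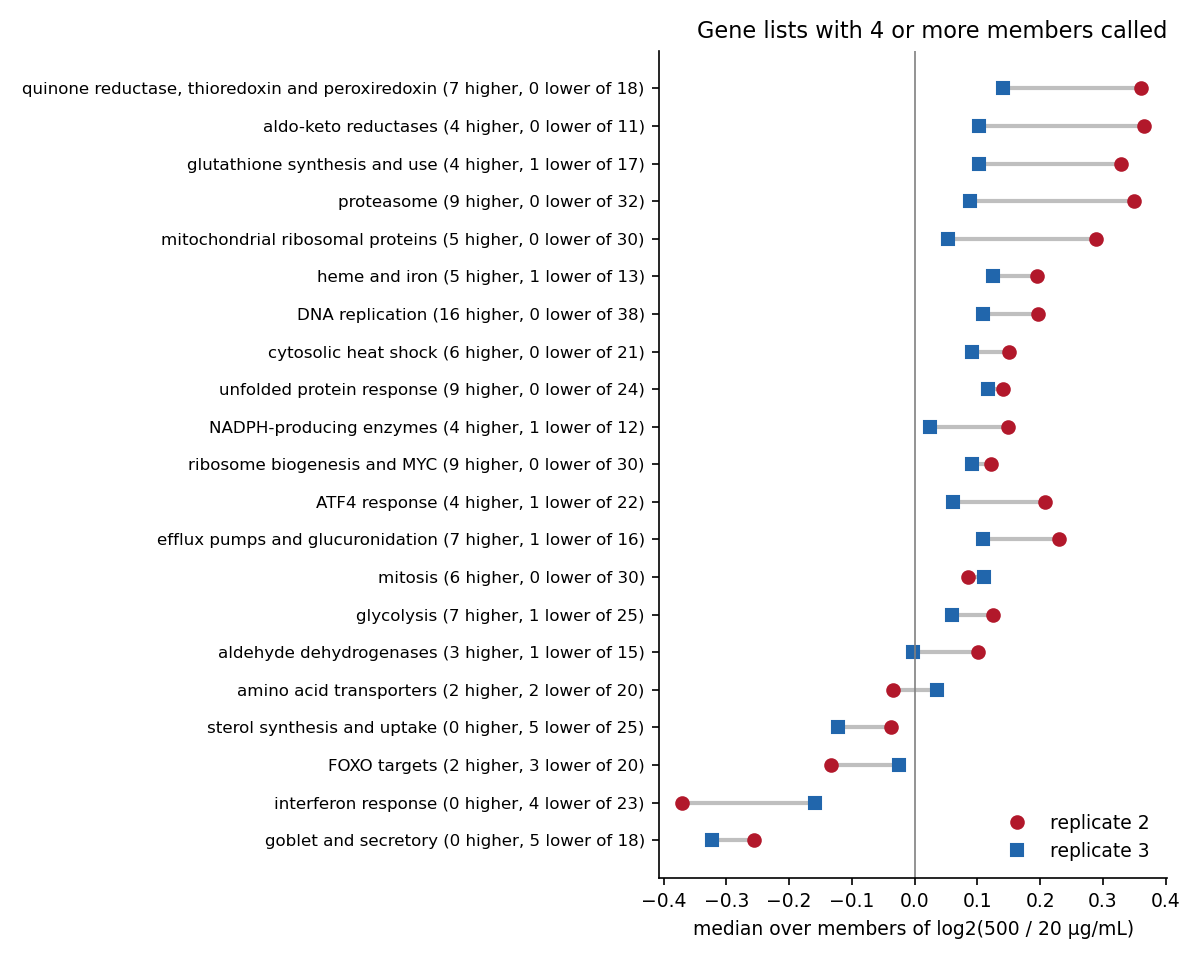
Median log2 ratio of 500 to 20 µg/mL (horizontal axis) over the tested members of the 21 lists with 4 or more members called, in replicate 2 and in replicate 3; labels give the number higher and lower at 500 µg/mL. Goblet genes lie at -0.26 and -0.32, unfolded protein response genes at 0.14 and 0.12, and proteasome genes at 0.35 and 0.09.

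Several lists gave no call at the high dose against the low dose: metallothioneins and zinc export (0 of 11), the hypoxia response (0 of 19), MondoA targets (0 of 5), small nucleolar RNA host genes (0 of 13) and the 13 mitochondrially encoded genes (median -0.07). Of these, 1, 4, 1, 5 and 0 members in the same order had an unadjusted p under 0.05 in edgeR, and DESeq2 called 0 in each. FOXO targets gave 2 rises and 3 falls of 20, and SESN1, a stress sensor gene, had 30.3 and 32.2 CPM against 36.9 and 38 CPM (-0.26 ± 0.05). Its call was lost without high-dose replicate 2 (edgeR adjusted p = 0.102) or low-dose replicate 3 (0.0516). The remaining lists gave 1 to 5 calls each, of which SLC7A11 in the ATF4 response, VIL1 in colon epithelial identity, and ACSS2 and ME1 in fatty acid synthesis stood under every omission.

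The medium dose was set against the low and the high dose. Between 100 and 20 µg/mL edgeR called 0 of 17432 genes, with 523 at an unadjusted p under 0.05, and DESeq2 called 0, with 311. Without the filter on low counts edgeR called 81. Between 500 and 100 µg/mL 636 genes rose (3.65%) and 569 fell (3.26%), 6.91% in all. These comparisons share libraries, so their calls are not separate evidence. AKR1B10 had 93.6 and 101 CPM at 20, 107 and 108 CPM at 100, and 200 and 177 CPM at 500 µg/mL, and ABCG2 had 85.0 and 86.2, 88.2 and 90.0, and 112 and 113 CPM in the same order. For the goblet gene REG4 the levels were 28.8 and 31.6, 25.2 and 26.8, and 20.6 and 21.2 CPM, and for IFIT1 5.49 and 5.16, 4.11 and 4.34, and 3.25 and 3.49 CPM. The medium-against-low values of both genes (-0.22 and -0.33) were not called.

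By size, AKR1C2 (1.05 ± 0.09), AKR1C3, AKR1B10 and AKR1C1 followed RN7SL2 among rises from 100 to 500 µg/mL, and SLC14A1 (-0.88 ± 0.16), NPY6R, MUC2, MEGF6 and SLC6A20 (-0.63 ± 0.08) led the falls. AKR1C2, AKR1B10, AKR1C1 and SLC6A20 stood without each of the 4 libraries. Without high-dose replicate 2 the calls of RN7SL2 (edgeR adjusted p = 0.50), AKR1C3 (0.0763), SLC14A1 (0.109), NPY6R (0.210), MUC2 (0.374) and MEGF6 (0.0883) were lost. Without medium-dose replicate 2 those of RN7SL2 (0.127), MUC2 (0.0774) and MEGF6 (0.0789) were lost, and without medium-dose replicate 3 that of RN7SL2 (0.155). NPY6R is annotated as a pseudogene. The 3 vehicle libraries had AKR1B10 at 105, 98.3 and 92.3 CPM and GCLM at 65.2, 67.2 and 58.8 CPM, and MUC13 at 157, 163 and 149 CPM, while MUC13 stood at 137 and 139 CPM at 20 µg/mL. Their sample codes also begin differently from those of Sagunja-tang, with no meaning given, so this split and the treatment cannot be told apart, and no test was made against vehicle. Vehicle sums of whole lists lay on either side of the low dose. Heme and iron genes summed to 8901 to 9182 CPM in vehicle, 7278 and 7855 CPM at the low dose, and 9233 and 8670 CPM at the high dose. In the same order, glutathione genes summed to 2723 to 2754, 2428 and 2581, and 2964 and 2842 CPM. Aldo-keto reductases summed to 299 to 339, 347 and 344, and 562 and 460 CPM.

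Samul-tang and Palmul-tang were given at the same doses for the same time, and Palmul-tang joins the herbs of Sagunja-tang and Samul-tang. The high-minus-low difference of Sagunja-tang was tested against that of each. It differed from Samul-tang in 24 of 17432 genes (0.138%), 20 lower (0.115%) and 4 higher (0.0229%) with Sagunja-tang, and from Palmul-tang in 1 gene (0.00574%). Samul-tang by itself raised 4.1% of genes and lowered 3.43% between these doses (7.53% in all), and Palmul-tang, with 3 libraries a dose, raised 7.66% and lowered 6.75% (14.4%). AKR1C2 rose by 1.08 ± 0.09 with Sagunja-tang and by 2.23 ± 0.09 with Samul-tang, a difference of -1.15 ± 0.13 (edgeR adjusted p = 9.50e-06). AKR1B10 rose by 0.96 ± 0.06 with Sagunja-tang, 1.76 ± 0.06 with Samul-tang and 1.5 ± 0.05 with Palmul-tang, differences of -0.80 ± 0.09 and -0.54 ± 0.08. The one gene that differed from Palmul-tang was AKR1B10, and that call was lost without low-dose Sagunja-tang replicate 3 (edgeR adjusted p = 0.214). Sample codes of Palmul-tang begin differently from those of Sagunja-tang and Samul-tang, for which the labels give no meaning, so this split and the extract cannot be told apart in that comparison.

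Glutathione genes were among those with a smaller rise. SLC7A11 rose by 0.42 ± 0.05 with Sagunja-tang and by 1.03 ± 0.05 with Samul-tang, and GCLC by 0.38 ± 0.06 and 1.01 ± 0.06. STT3A, a subunit of the enzyme that attaches glycans to new proteins, stood at -0.01 ± 0.03 with Sagunja-tang (not called) and rose by 0.29 ± 0.03 with Samul-tang. These 3 genes, AKR1C2 and AKR1B10 were called without each of the 8 libraries involved. SLC38A4 (-1.28 ± 0.22) and AKR1C1 (-0.78 ± 0.13) lost their calls without low-dose Sagunja-tang replicate 2 (edgeR adjusted p = 0.115 and 0.0650) or low-dose Samul-tang replicate 2 (0.0886 for both). The higher side, ASF1B, CRIP2, DHRS3 and RARRES1, was called in 1 to 4 of the 8 omissions. A gene with no call here is not shown to respond alike.

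**Figure D5:**
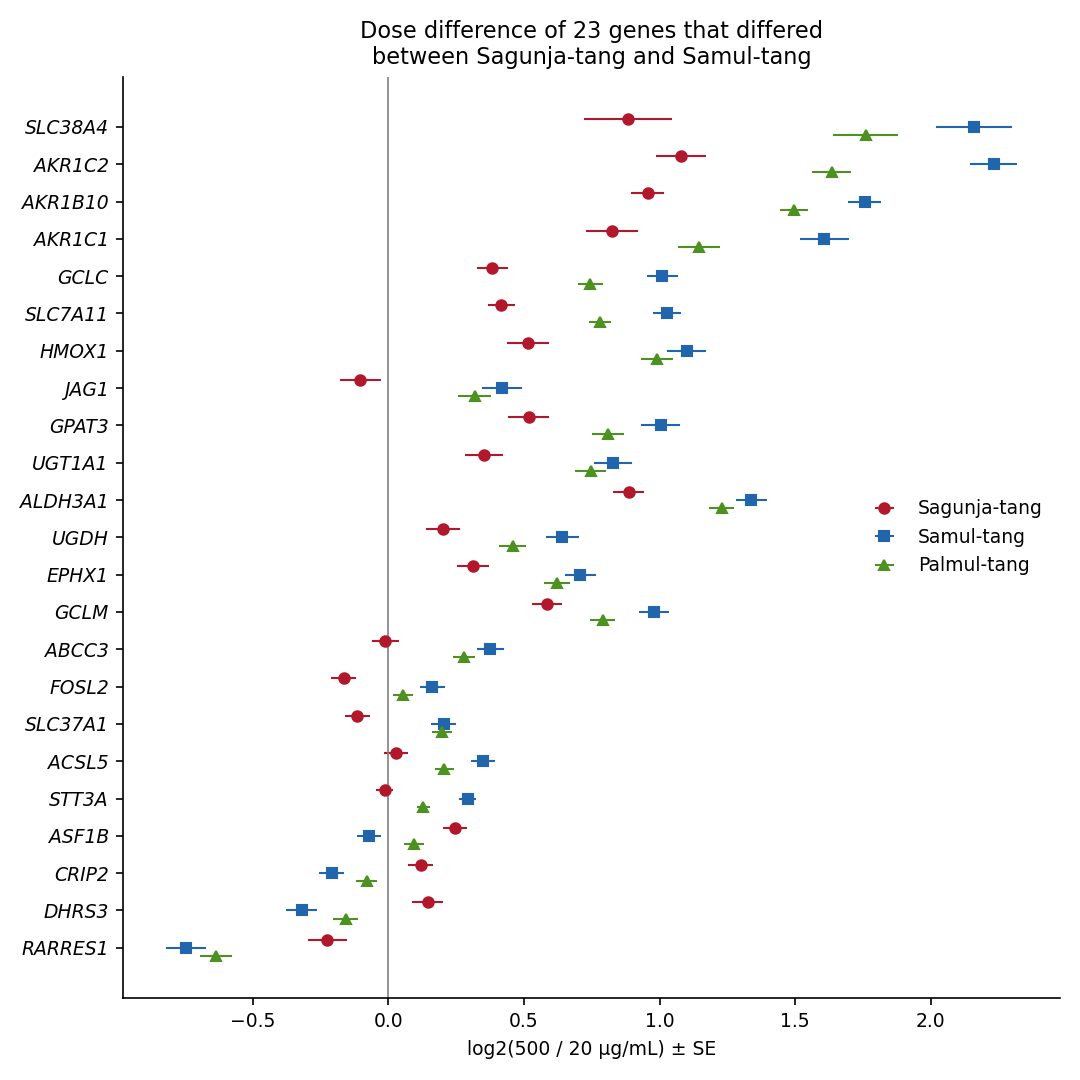
Log2 ratio of 500 to 20 µg/mL ± SE (horizontal axis) of 23 genes whose dose difference was called different between Sagunja-tang and Samul-tang (vertical axis), for Sagunja-tang, Samul-tang and Palmul-tang. Sagunja-tang lies left of Samul-tang for 19 genes, as in AKR1C2 at 1.08 against 2.23, and right of it for the 4 at the bottom.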

How the data were processed

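The deposited table holds RSEM expected counts per gene made by the authors. Per the labels' protocols, strand-specific libraries were sequenced from both ends at 100 bases on an MGI instrument, and per the submitters' processing notes FastQC 0.11.9, Trim Galore 0.6.5, STAR 2.7.3a and RSEM 1.3.3 were used with hg38. The annotation release is not given in the sources used here. Of the values 9.45% were not whole, and they were rounded. Of 273 columns 33 were used and 240 were not used here. RSEM shares reads among near-identical genes, which can blur AKR1C and UGT1A members, RN7SL copies and pseudogenes.

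Of 60675 genes, 17432 passed edgeR 4.0.16 filterByExpr (minimum count 10) and were tested in R 4.3.3 with TMM normalization, 1 coefficient for each of 13 groups over 33 libraries, quasi-likelihood tests and Benjamini-Hochberg adjustment (0.05), in 5 comparisons. The fit had 20 residual degrees of freedom. The SE is the absolute log2 ratio divided by the square root of F. Positions, lengths and GC content came from GENCODE 29, and promoter windows from RefSeq GRCh38.p14.

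The comparison, the 51 gene lists and the tests were chosen with earlier results of these data known. The genes named are the 12 with the largest rise and the 12 with the largest fall that passed the test, reached a mean log2 CPM of 2, carry a standard symbol and have doses that do not overlap; up to 4 members of a list, taken by lowest p; and 5 per direction in the other comparisons. Further genes complete the calls of a list, stand as examples with no call or show a difference between extracts, and were chosen after their values were seen. On simulated counts for high against low dose (17185 genes, 200 changed), the test found 18.6% of changes of log2 0.25, 64.3% of those of 0.5 and 65% of those of 1. In that run 4.90% of its calls were false. The simulated libraries had no length trend and no replicate apart from its partner, so that share does not describe the calls made here. Alternatives were DESeq2 1.42.0, its size factors, no filter, only the groups compared, a replicate block, removal of length and GC trends by lowess, thinning to the smallest total, and leaving out each library. Some genes are counted in the totals but not reported here by name.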

Additional observations from a re-analysis of the deposited data

Results flagged for a closer look

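The difference in dose response between extracts was tested directly for the genes given here, and each value is the log2 high-minus-low difference of Sagunja-tang less that of the other extract. Against Samul-tang, the reductase genes AKR1C2, AKR1B10 and AKR1C1 gave -1.15, -0.80 and -0.78, and the transporter gene SLC38A4 gave -1.28. The glutathione genes GCLC, SLC7A11 and GCLM gave -0.63, -0.61 and -0.39, and HMOX1 gave -0.58. Among other detoxification genes ALDH3A1 gave -0.45, UGT1A1 -0.48, UGDH -0.44, EPHX1 -0.39 and ABCC3 -0.39. Among lipid genes GPAT3 gave -0.49 and ACSL5 -0.32. JAG1, a Notch ligand gene, gave -0.52, FOSL2, an AP-1 subunit gene, -0.33, SLC37A1 -0.32 and STT3A -0.31. On the higher side, RARRES1 gave 0.52, DHRS3, a retinal reductase gene, 0.47, CRIP2 0.33 and the histone chaperone gene ASF1B 0.32. Against Palmul-tang, AKR1B10 gave -0.54. Against Samul-tang, AKR1C2, AKR1B10, GCLC, SLC7A11 and STT3A were called without each of the 8 libraries involved. SLC38A4 and AKR1C1 were called in 6 of the 8 omissions, ALDH3A1 in 5, DHRS3 in 4, and HMOX1, CRIP2 and ASF1B in 3. JAG1, UGDH, GCLM, ABCC3, FOSL2 and ACSL5 were called in 2, and GPAT3, UGT1A1, EPHX1, SLC37A1 and RARRES1 in 1. The AKR1B10 difference from Palmul-tang was called in 9 of 10.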

How the results depend on the processing

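With only the libraries of the groups compared in the fit, edgeR called 0 genes for high against low dose (1372 at an unadjusted p under 0.05). It also called 0 for high against medium, for Sagunja-tang against Samul-tang and for Sagunja-tang against Palmul-tang. The calls therefore need the spread estimated over all groups. For high against low dose DESeq2 called 1286 genes, its size factors 1237, no filter 1820, trends removed 1118 and thinning 1116, and leaving out each library gave 140 to 4222. For high against medium the counts were 2079 with no filter, 718 with trends removed and 47 to 4434 with each library left out. For medium against low no filter gave 81 and every other alternative 0. For Sagunja-tang against Samul-tang they were 380 with no filter, 45 with DESeq2, 15 after thinning and 7 to 1986 with each library left out, and against Palmul-tang 237, 11 with DESeq2, 2 with trends removed and 0 to 1636. With trends removed, 828 of the 1254 calls for high against low were kept, and 526 of the 1205 for high against medium. With the replicate number as a block, 1707 genes were called for high against low, 1841 for high against medium, 36 against Samul-tang and 17 against Palmul-tang. Over all genes, deviations of same-numbered libraries correlated weakly at most (r = 0.0117 between high and low, -0.0168 to 0.121 over 15 pairs of 6 groups). The main fit did not pair libraries by number, although more genes were called with the block. Of 155 genes followed singly for high against low dose none changed sign past the threshold under these alternatives, 80 lost their call without high-dose replicate 2, and 14 with trends removed. With only the groups compared in the fit, 134 of the 155 lost theirs, and omission of either low-dose library also ended calls, as given gene by gene above. In simulated data fewer than 1 in 5 changes of log2 0.25 were recovered, so small changes may be missed at this size.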

Other observations

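Some genes outside the lists and the rule for named genes, chosen after their values were seen, were also called at the high against the low dose under each omission of 1 library. TRIM16L, a tripartite motif gene, had 14.0 and 15.1 CPM at the high dose, against 9.59 and 10.4 CPM at the low dose (0.54 ± 0.08). GPAT3, an enzyme of glycerolipid synthesis, had 22.3 and 22.1 CPM against 15.7 and 15.4 CPM (0.52 ± 0.07). CYP4F11, a fatty acid hydroxylase, had 1.45 and 1.97 CPM against 0.781 and 0.833 CPM (1.09 ± 0.21), and AQP3, a glycerol and water channel, had 121 and 114 CPM against 92.1 and 98 CPM (0.30 ± 0.05). Both high-dose libraries lay above both low-dose libraries in these 4 genes, and doses did not overlap for 44.4% of all genes tested.

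On the lower side, STEAP4, a metalloreductase, had 11.7 and 12.4 CPM at the high dose and 18.1 and 17.9 CPM at the low dose (-0.58 ± 0.08). TMPRSS2, a surface serine protease, had 24.7 and 24.8 CPM against 31.7 and 30.4 CPM (-0.33 ± 0.04), and TGM2, a transglutaminase, had 334 and 374 CPM against 423 and 426 CPM (-0.26 ± 0.04). DNMT3A, a DNA methyltransferase, had 18.7 and 18.6 CPM at the high dose and 23.4 and 23.4 CPM at the low dose (-0.33 ± 0.06).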
